A study of Arabidopsis thaliana with 8 samples.

Results

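The nuclear genes of the photosystems and of photosynthetic electron transport were followed by RNA sequencing of whole etiolated (dark-grown) Arabidopsis thaliana seedlings. The 32 genes were taken by their locus codes, not by their values, and all 32 were found among the 27416 gene models measured. They encode subunits of photosystem I (12 genes), of photosystem II (11 genes) and of the chloroplast ATP synthase (2 genes), the Rieske protein of the cytochrome b6f complex (1 gene), and the carriers plastocyanin (2 genes), ferredoxin (2 genes) and leaf ferredoxin-NADP reductase (2 genes). The question is how transcript levels of these genes answered red light and how far the answer differed in seedlings mutated in phytochromes A and B.

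There were 4 groups of 2 libraries each. The group phyAB red held red-treated phyAB mutant seedlings, phyB red held red-treated phyB mutant seedlings, WT red held red-treated wild type and WT dark held wild type left in darkness. Red light was given for 1 h at 50 µmol per square metre per second. All seedlings were of the Col ecotype and 4.5 days old, and all had germinated on medium with 1% sucrose after 12 h of white light and were then held at 22 °C in darkness for 4 days. The labels do not describe the mutant alleles. Mutant seedlings kept in darkness are not analysed here, so an effect of red light and a difference already present in darkness cannot be told apart between genotypes.

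Photosystem II takes electrons from water and passes them through plastoquinone to the cytochrome b6f complex, and plastocyanin carries them on to photosystem I. Photosystem I hands them to ferredoxin, from which ferredoxin-NADP reductase makes NADPH, while the ATP synthase uses the proton gradient that builds up on the way. The reaction centre cores are encoded in the plastid, and the nuclear genes add the subunits that dock the carriers, hold the water-splitting cluster and bind the antenna. Phytochromes are red and far-red light receptors under which etiolated seedlings begin to turn green. The core hexamer of the G-box, CACGTG, is known as a binding site of the light-signalling factors HY5 and PIFs, and GATAAG, the I-box, was described in promoters of photosynthesis genes.

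The sequence directly before the annotated start was searched on both strands for these letters, because the members moved together. Within 250 bases, CACGTG occurred in 6 of 32 members (18.8%) and in 6.5% of 27443 protein-coding promoters of the same length. GATAAG occurred in 8 members (25.0%) and in 12.3% of all promoters, and one or the other in 12 members (37.5%) and in 17.9% of all. For comparison, TATAAA occurred in 46.9% of members and 47.3% of all promoters, CCAAT in 50.0% and 46.0%, AAAATATCT (the evening element) in 3.1% and 2.4%, and AAACCCTAA (the telo box) in 0 members and 2.6% of all. The motifs were picked after expression values had been seen, and a match describes letters only. The members with CACGTG were PSAE2, PSAH2, PSBQ1, PSBQ2, PSBTN and ATPD. They include PSAH2 and PSAE2, the members with the highest and the lowest fold change in wild type. The sequences of 5 of them are printed here from the RefSeq annotation of the TAIR10.1 assembly, 5′ to 3′ on the strand of the gene and ending at the base before its start. Capitals mark CACGTG or GATAAG, which do not overlap each other. Windows were cut short where a neighbouring gene lies, and for ATPD too little was left to show.
PSAE2 (chr2:8736598-8736733, plus strand): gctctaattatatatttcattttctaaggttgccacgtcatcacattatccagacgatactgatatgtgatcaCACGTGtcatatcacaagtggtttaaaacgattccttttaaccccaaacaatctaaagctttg
PSAH2 (chr1:19454766-19454797, plus strand): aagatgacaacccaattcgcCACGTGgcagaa
PSBQ1 (chr4:11334169-11334351, plus strand): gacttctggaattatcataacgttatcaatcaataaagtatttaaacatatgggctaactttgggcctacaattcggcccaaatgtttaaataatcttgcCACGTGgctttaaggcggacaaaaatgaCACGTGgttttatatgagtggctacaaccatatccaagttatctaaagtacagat
PSBQ2 (chr4:2673244-2673493, minus strand): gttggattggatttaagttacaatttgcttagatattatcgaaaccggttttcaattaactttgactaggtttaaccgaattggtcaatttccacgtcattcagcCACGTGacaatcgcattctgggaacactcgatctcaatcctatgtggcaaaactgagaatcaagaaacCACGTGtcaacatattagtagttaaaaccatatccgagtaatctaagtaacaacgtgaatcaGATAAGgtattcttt
PSBTN (chr3:7377227-7377390, minus strand): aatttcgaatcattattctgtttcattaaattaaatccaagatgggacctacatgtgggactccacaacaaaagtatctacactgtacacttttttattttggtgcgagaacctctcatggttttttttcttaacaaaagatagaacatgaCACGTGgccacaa

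In these windows PSBQ1 and PSBQ2, the paired genes of one oxygen-evolving subunit, each held CACGTG at 2 places, starting 83 and 55 bases before the start in PSBQ1 and 145 and 77 bases before it in PSBQ2. In PSBQ2 a GATAAG followed 15 bases before the start. The printed site of PSAH2 lay 12 bases and that of PSBTN 13 bases before the start, and the site of PSAE2 lay 63 bases before it. The counts above used the full 250 bases, neighbouring genes included, in which PSAH2 had a second CACGTG at 67 bases and a GATAAG at 84 bases.

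The libraries held 15926547 to 22116924 reads, and 20716 genes, among them all 32 members, had enough reads to be tested. For differences between groups, read counts entered the quasi-likelihood F-test of edgeR, and a gene was called at a Benjamini-Hochberg adjusted p under 0.05 over all tested genes. Values after ± are standard errors of log2 fold changes unless named as SD, with n = 2 libraries per group. The labels do not say that replicates came from separate cultures, so the p-values rest on the spread of these libraries alone, which may be technical. That spread was small (common biological coefficient of variation 1.59%), and small differences were therefore called. Levels are given in CPM, counts per library total after TMM scaling. PHYA transcripts stood at 124 and 123 CPM in phyAB red, 703 and 703 CPM in phyB red, 463 and 470 CPM in WT red and 834 and 828 CPM in WT dark. PHYB transcripts stood at 52.9 and 50.4 CPM in phyAB red, 62.3 and 64.3 CPM in phyB red, 96.0 and 95.2 CPM in WT red and 80.7 and 81.3 CPM in WT dark. Both were thus lowest in the phyAB libraries, and reads of both remained in the mutants. Summed CPM of 4 seed storage and oil body genes (CRA1, CRC, OLEO1, OLEO2) was 58.5 and 57.4 in phyAB red, 2.06 and 1.62 in phyB red, 2.12 and 2.51 in WT red and 2.50 and 2.95 in WT dark. Of these genes 4 of 4 were called higher in phyAB red than in WT red, beside 22.3% of all tested genes. The root gene PYK10 stood at 15900 and 15700 CPM in phyAB red, 11100 and 11100 CPM in phyB red, 18200 and 18200 CPM in WT red and 13600 and 13600 CPM in WT dark. PYK10 was lower in phyAB red than in WT red (log2 fold change -0.21), whereas CASP1, COBL9 and EXPA7 had higher levels there than in WT red. CASP1 stood at 223 and 228 CPM in phyAB red, 202 and 196 CPM in phyB red, 176 and 176 CPM in WT red and 182 and 181 CPM in WT dark. COBL9 stood at 3.52 and 5.60 CPM in phyAB red, 3.24 and 3.33 CPM in phyB red, 3.11 and 3.13 CPM in WT red and 4.86 and 3.70 CPM in WT dark. EXPA7 stood at 4.56 and 5.01 CPM in phyAB red, 2.37 and 3.24 CPM in phyB red, 2.95 and 3.45 CPM in WT red and 4.11 and 4.67 CPM in WT dark, and was 0.58 ± 0.21 higher in phyAB red than in WT red. None of the 4 seed genes was at 0 in both libraries of a group. The part of seed and root transcripts in the results was not tested. In whole seedlings, fewer cells of a type and less RNA per cell cannot be told apart.

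The 32 members together took 0.410% and 0.409% of all reads in phyAB red, 1.12% and 1.12% in phyB red, 0.923% and 0.919% in WT red and 0.166% and 0.169% in WT dark. Their summed level was 4014 and 4005 CPM in phyAB red, 11100 and 11126 CPM in phyB red, 9445 and 9405 CPM in WT red and 1670 and 1696 CPM in WT dark. The groups thus lay in the order phyB red, WT red, phyAB red, WT dark, with phyB red 1.18 times WT red, and the 2 libraries of a group lay closer together than any groups did. The mean CPM followed this order in 31 of 32 members, and in 11.4% of all tested genes. The exception was FD1, a leaf ferredoxin, whose mean was higher in WT red than in phyB red. RPKM also divides by gene length. By RPKM the median member stood at the 95.4th percentile of the tested genes in phyAB red, the 98.9th in phyB red, the 98.7th in WT red and the 86.3th in WT dark.

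**Figure D1:**
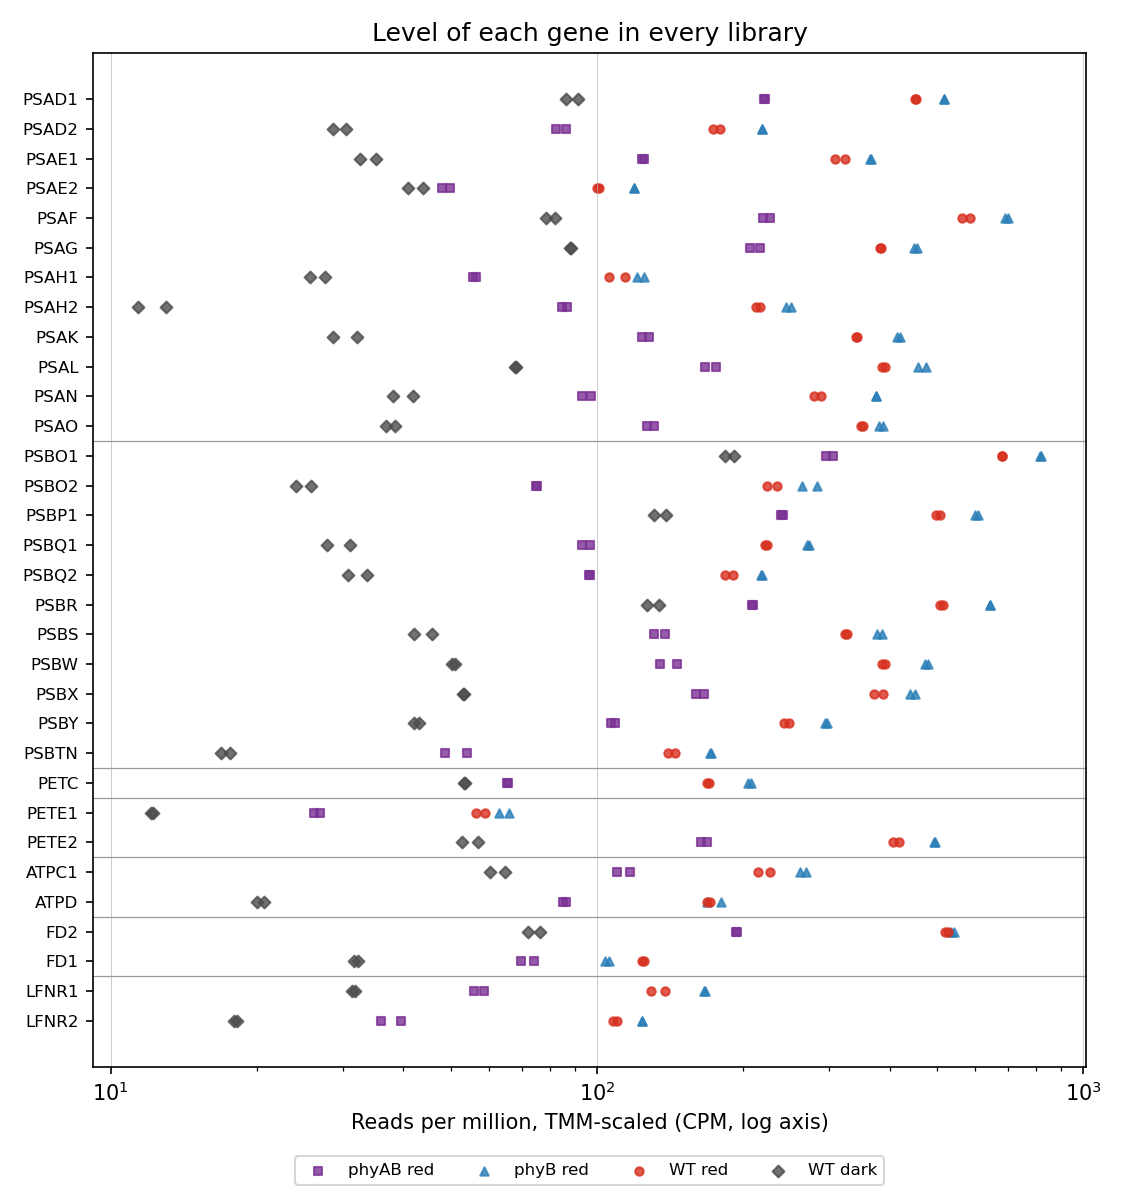
Levels of the members, 1 gene per line and grouped by complex, against CPM on a log axis; colours and symbols mark the 4 groups, and each point is 1 library. WT dark is lowest for each member, and phyAB red lies between WT dark and WT red.

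In wild type, 1 h of red light raised the transcripts of every member. All 32 were called higher in WT red than in WT dark, where 24.1% of all tested genes were called higher, and all 32 were at least 2-fold higher, against 7.1% of all tested genes. The median log2 fold change was 2.58, or 5.99-fold, against 0.0 over all tested genes, and values ran from 1.25 in PSAE2 to 4.14 in PSAH2. The summed level was 5.6 times as high in WT red as in WT dark. By complex the ratio was 7.01 for plastocyanin, 6.39 for photosystem I, 6.11 for ferredoxin, 5.11 for photosystem II, 4.89 for the reductases, 4.71 for the ATP synthase genes and 3.16 for PETC. Across the 32 genes, Spearman's rho between dark RPKM in 1 dark library and the fold change computed from the other was -0.34 and -0.36. These are descriptions across genes that share libraries.

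In phyB red the members stood slightly above WT red. In this comparison 29 of 32 were called higher, where 13.1% of all tested genes were, and 1 was called lower, where 14% were. The median log2 fold change was 0.26, or 1.2-fold, and the highest was 0.40 in PSAN, a lumenal subunit of photosystem I. None of the 32 reached 2-fold, against 1.16% of tested genes called at least 2-fold higher. Tested against a 1.5-fold change with edgeR's glmTreat, 0 members were called in either direction, also at an unadjusted p under 0.05. Of 20716 tested genes, glmTreat called 379 in this comparison, 187 of them higher. DESeq2's Wald test against no change called 28 members higher and 1 lower, beside 3647 of all tested genes, 1761 of them higher. Against WT dark, all 32 were called at least 2-fold higher in phyB red, where 8.03% of tested genes were (27.4% at any size), with a median log2 fold change of 2.83.

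In phyAB red every member stood below WT red and above WT dark. All 32 were called lower than in WT red, where 22.7% of all tested genes were called lower, and 26 were at least 2-fold lower, against 2.95%. The median log2 fold change was -1.23, which is 0.428 of the WT red level, and values ran from -1.60 in PSBO2 to -0.78 in FD1. Against phyB red, all 32 were called lower (24.1% of tested genes) and 31 at least 2-fold lower (4.35%), with a median of -1.49. Against WT dark, all 32 were called higher (27.2% of tested genes) and 25 at least 2-fold higher (6.28%), with a median of 1.36 and a range from 0.21 to 2.82. The seed genes named above were higher in phyAB red as well, at a median log2 fold change of 4.67 against WT red, and their part in the members' difference was not tested. Their WT red levels were low, from 0.0518 CPM (CRC and OLEO1) to 1.75 CPM (OLEO2), so the size of that change is uncertain. Members differed from each other less in phyAB red against WT red than in the response of the wild type. The SD over the 32 log2 fold changes was 0.21 for phyAB red against WT red, 0.11 for phyB red against WT red and 0.61 for WT red against WT dark. These comparisons share the WT red libraries. They also differ in size, with medians of -1.23, 0.26 and 2.58, and the SDs were not scaled to it. For phyAB red against WT dark, with a median of 1.36, the SD was 0.52.

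**Figure D2:**
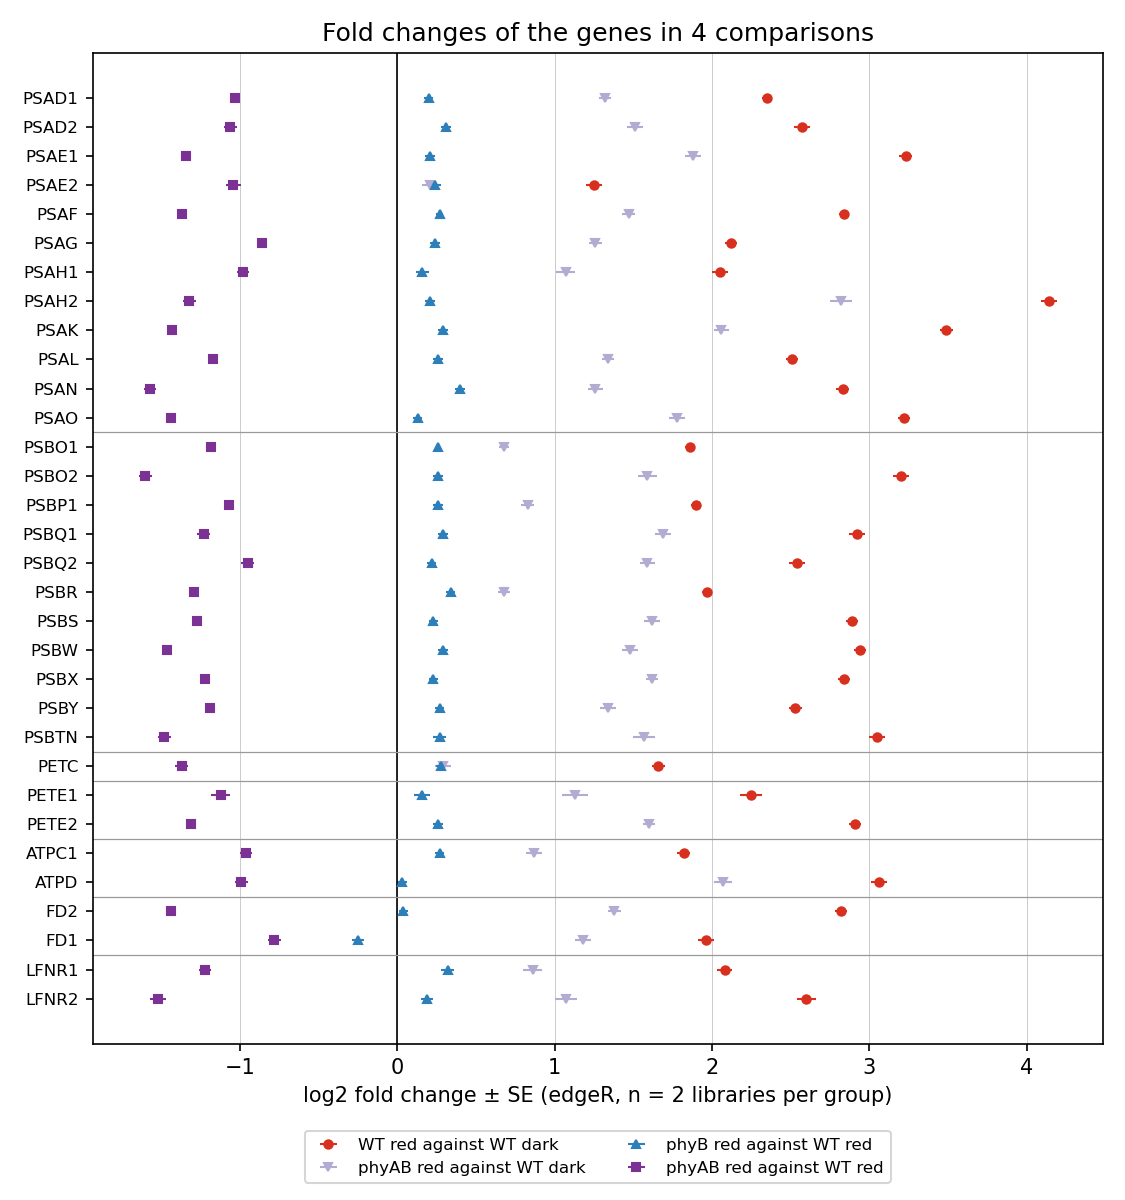
Log2 fold changes of the 32 members, ordered by complex, for WT red against WT dark, phyAB red against WT dark, phyB red against WT red and phyAB red against WT red; bars are ± SE. Values for WT red spread from 1.25 to 4.14, whereas those of phyAB red against WT red lie between -1.60 and -0.78.

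Photosystem I was represented by 9 subunits, 3 of them encoded by paired genes. The PsaH protein sits where mobile light-harvesting complex docks, and PSAH2 (AT1G52230, chromosome 1, 19454798 to 19455668, plus strand, 3 exons) stood at 84.6 and 86.8 CPM in phyAB red, 245 and 251 CPM in phyB red, 212 and 216 CPM in WT red and 11.4 and 13.0 CPM in WT dark. The 4 groups did not overlap, and per length PSAH2 had the lowest dark mean of the photosystem I genes, 18.3 RPKM. It was 4.14 ± 0.05 higher on the log2 scale in WT red than in WT dark (adjusted p = 2.59e-73, edgeR quasi-likelihood test). The gene overlaps AT1G52240 on the other strand by 174 bases, and that gene had 222 and 265 reads in WT dark, beside 227 and 242 reads of PSAH2. The sources used here do not give whether counting used strand, so reads in the overlap cannot be assigned with certainty. Its partner PSAH1 (AT3G16140) stood at 56.4 and 55.7 CPM in phyAB red, 121 and 125 CPM in phyB red, 114 and 106 CPM in WT red and 27.6 and 25.7 CPM in WT dark. Its phyB red libraries lay close above those of WT red, and the other groups lay well below. PSAH1 was 2.05 ± 0.05 higher in WT red than in WT dark, and in phyB red it was 0.16 ± 0.04 above WT red. That second call was lost without phyB red replicate 2 (adjusted p = 0.0523) or without WT red replicate 2 (adjusted p = 0.0838).

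PsaD and PsaE form the stromal side at which ferredoxin docks. PSAE2 (AT2G20260, chromosome 2, 8736734 to 8737767, plus strand) stood at 48.0 and 49.9 CPM in phyAB red, 119 and 119 CPM in phyB red, 100 and 101 CPM in WT red and 40.9 and 43.8 CPM in WT dark. Its phyAB red level lay just above WT dark, without overlap. It had the smallest fold change of all members in wild type (1.25 ± 0.05) and in phyAB red against WT dark (0.21 ± 0.05, adjusted p = 0.000702, edgeR). Without WT dark replicate 1 this last value was 0.12 and was no longer called (adjusted p = 0.136). PSAE1 (AT4G28750) stood at 125 and 124 CPM in phyAB red, 365 and 366 CPM in phyB red, 323 and 309 CPM in WT red and 32.5 and 35.2 CPM in WT dark. Its groups did not overlap, and its log2 fold change in wild type was 3.23 ± 0.04. Per length the mean of PSAE1 in WT dark was 48.3 RPKM, below the 69.4 RPKM of PSAE2, whereas in WT red it was 442 RPKM, above the 162 RPKM of PSAE2. PSAD1 (AT4G02770) stood at 221 and 222 CPM in phyAB red, 517 and 518 CPM in phyB red, 450 and 454 CPM in WT red and 86.2 and 91.6 CPM in WT dark. PSAD2 (AT1G03130) stood at 82.5 and 86.2 CPM in phyAB red, 218 and 218 CPM in phyB red, 173 and 179 CPM in WT red and 28.6 and 30.5 CPM in WT dark. Both PSAD genes kept the groups apart, with fold changes in wild type of 2.35 ± 0.03 for PSAD1 and 2.57 ± 0.05 for PSAD2.

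The 6 single genes of photosystem I ranged over 93.1 to 227 CPM in phyAB red, 374 to 699 CPM in phyB red, 280 to 584 CPM in WT red and 28.7 to 88.3 CPM in WT dark. They were PSAF (AT1G31330), which docks plastocyanin on the lumen side, PSAG (AT1G55670) and PSAK (AT1G30380) beside the antenna belt, PSAL (AT4G12800) and PSAO (AT1G08380) on the docking side of mobile antenna, and PSAN (AT5G64040) in the lumen. PSAF stood at 219 and 227 CPM in phyAB red, 699 and 690 CPM in phyB red, 584 and 564 CPM in WT red and 81.9 and 78.5 CPM in WT dark. PSAG stood at 206 and 216 CPM in phyAB red, 449 and 455 CPM in phyB red, 384 and 382 CPM in WT red and 88.3 and 87.9 CPM in WT dark. PSAK stood at 128 and 124 CPM in phyAB red, 420 and 414 CPM in phyB red, 342 and 341 CPM in WT red and 32.1 and 28.7 CPM in WT dark. In these 3 genes the groups did not overlap, and PSAK had the lowest dark level relative to its level in red light. PSAL stood at 176 and 167 CPM in phyAB red, 475 and 457 CPM in phyB red, 385 and 392 CPM in WT red and 67.9 and 68.1 CPM in WT dark. PSAN stood at 97.4 and 93.1 CPM in phyAB red, 374 and 375 CPM in phyB red, 280 and 289 CPM in WT red and 38 and 41.8 CPM in WT dark. PSAO stood at 131 and 127 CPM in phyAB red, 381 and 387 CPM in phyB red, 349 and 353 CPM in WT red and 36.9 and 38.4 CPM in WT dark. Here too phyB red was highest, WT red next, phyAB red below it and WT dark lowest, without overlap. Log2 fold changes in wild type ran from 2.12 ± 0.04 in PSAG to 3.49 ± 0.04 in PSAK. PSAG had the smallest decrease among them in phyAB red against WT red (-0.86 ± 0.03) and PSAN the largest (-1.57 ± 0.04). PSAN was also the member that stood furthest above WT red in phyB red (0.40 ± 0.03), so that it fell by 1.97 ± 0.03 in phyAB red against phyB red.

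In photosystem II the genes of the oxygen-evolving complex, which shields the water-splitting manganese cluster, spanned the whole range of the complex. PSBO1 (AT5G66570, chromosome 5, 26568572 to 26570461, plus strand), the main manganese-stabilising protein, stood at 296 and 306 CPM in phyAB red, 818 and 815 CPM in phyB red, 680 and 680 CPM in WT red and 191 and 183 CPM in WT dark. Its partner PSBO2 (AT3G50820, chromosome 3, 18890874 to 18892508, minus strand) stood at 75.1 and 75.4 CPM in phyAB red, 264 and 284 CPM in phyB red, 224 and 235 CPM in WT red and 24.1 and 25.8 CPM in WT dark. Neither gene had overlapping groups. PSBO1 had the smallest fold change of photosystem II in wild type (1.86 ± 0.03) and PSBO2 the largest (3.20 ± 0.05). PSBO2 also had the largest decrease of all members in phyAB red against WT red (-1.60 ± 0.04, adjusted p = 4.55e-53, edgeR), beside -1.18 ± 0.02 in PSBO1. PSBQ1 (AT4G21280) stood at 96.7 and 93.2 CPM in phyAB red, 270 and 273 CPM in phyB red, 222 and 224 CPM in WT red and 27.8 and 31.1 CPM in WT dark. PSBQ2 (AT4G05180) stood at 96.5 and 96.8 CPM in phyAB red, 218 and 217 CPM in phyB red, 190 and 183 CPM in WT red and 30.8 and 33.6 CPM in WT dark. Neither had overlapping groups. Per length, PSBQ1 averaged 241 RPKM and PSBQ2 176 RPKM in WT red, and in WT dark they stood at 32.4 and 30.9 RPKM. Their fold changes in wild type were 2.92 ± 0.05 for PSBQ1 and 2.54 ± 0.05 for PSBQ2.

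The 7 single genes of photosystem II ranged over 48.7 to 241 CPM in phyAB red, 171 to 644 CPM in phyB red, 140 to 514 CPM in WT red and 16.9 to 139 CPM in WT dark. They comprise PSBP1 (AT1G06680) of the oxygen-evolving complex, PSBR (AT1G79040) beside it, PSBS (AT1G44575), which senses lumen pH for the quenching of excess light, and the small subunits PSBW (AT2G30570), PSBX (AT2G06520), PSBY (AT1G67740) and PSBTN (AT3G21055). PSBP1 stood at 239 and 241 CPM in phyAB red, 599 and 607 CPM in phyB red, 507 and 498 CPM in WT red and 131 and 139 CPM in WT dark. PSBR stood at 208 and 209 CPM in phyAB red, 644 and 644 CPM in phyB red, 514 and 507 CPM in WT red and 127 and 134 CPM in WT dark. On the log2 scale, the phyAB red levels of both genes lay nearer to WT dark than to WT red, as in 11 of 32 members. On CPM itself this held for every member, among them PSBS and PSBX below. PSBS stood at 138 and 131 CPM in phyAB red, 377 and 385 CPM in phyB red, 324 and 327 CPM in WT red and 45.8 and 42.1 CPM in WT dark. PSBW stood at 146 and 135 CPM in phyAB red, 473 and 479 CPM in phyB red, 385 and 392 CPM in WT red and 51.1 and 50.3 CPM in WT dark. PSBX stood at 160 and 166 CPM in phyAB red, 451 and 441 CPM in phyB red, 387 and 372 CPM in WT red and 53 and 53.3 CPM in WT dark. None of these had overlapping groups. PSBY stood at 107 and 109 CPM in phyAB red, 294 and 297 CPM in phyB red, 248 and 243 CPM in WT red and 43 and 42 CPM in WT dark. PSBTN stood at 48.7 and 54.1 CPM in phyAB red, 172 and 171 CPM in phyB red, 140 and 145 CPM in WT red and 16.9 and 17.6 CPM in WT dark. In both small subunits the groups stood apart in the same order. Log2 fold changes in wild type ran from 1.90 ± 0.03 in PSBP1 to 3.05 ± 0.05 in PSBTN, and PSBS was at 2.89 ± 0.04. In phyAB red against WT red they ran from -1.48 ± 0.04 in PSBTN to -1.07 ± 0.03 in PSBP1. In phyB red against WT red they lay between 0.23 and 0.34, the last in PSBR.

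PETC (AT4G03280, chromosome 4, 1440146 to 1441863, plus strand), the Rieske iron-sulfur protein that passes electrons within the cytochrome b6f complex, stood at 65.4 and 65.7 CPM in phyAB red, 204 and 207 CPM in phyB red, 168 and 170 CPM in WT red and 53.4 and 53.6 CPM in WT dark. The phyAB libraries lay close above the dark ones. PETC was 1.66 ± 0.04 higher in WT red than in WT dark, and 0.29 ± 0.05 higher in phyAB red than in WT dark (adjusted p = 2.49e-07, edgeR). The plastocyanin gene PETE2 (AT1G20340) stood at 168 and 164 CPM in phyAB red, 494 and 496 CPM in phyB red, 418 and 406 CPM in WT red and 56.9 and 52.9 CPM in WT dark. PETE1 (AT1G76100) stood at 27.0 and 26.2 CPM in phyAB red, 62.8 and 66.1 CPM in phyB red, 59.0 and 56.3 CPM in WT red and 12.2 and 12.1 CPM in WT dark. Both kept the groups apart. PETE2 was 2.91 ± 0.04 and PETE1 2.25 ± 0.07 higher in WT red than in WT dark. In phyB red against WT red, PETE1 was 0.16 ± 0.05 higher (adjusted p = 0.0126, edgeR), and the call was lost with DESeq2 (adjusted p = 0.12), without phyB red replicate 2 (0.226) and without WT red replicate 2 (0.159).

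Neither gene of the ferredoxins, which take electrons from photosystem I, was called higher in phyB red than in wild type in red light. FD1 (AT1G10960, chromosome 1, 3664187 to 3665040, plus strand), the minor leaf form, stood at 74.3 and 69.7 CPM in phyAB red, 104 and 106 CPM in phyB red, 124 and 125 CPM in WT red and 31.6 and 32.3 CPM in WT dark. Its phyB red libraries lay below both WT red libraries. It was the one member called lower in phyB red than in WT red (-0.25 ± 0.04, adjusted p = 2.32e-07, edgeR). FD1 also had the smallest decrease in phyAB red, both against WT red (-0.78 ± 0.04) and against phyB red (-0.54 ± 0.04). Its annotated start overlaps AT1G10950 on the same strand by 78 bases, and that gene had 2419 to 3766 reads per library, beside 602 to 2391 reads of FD1. The annotated transcript has 854 bases and the counted gene model 654, so the overlap may lie outside the counted model. FD2 (AT1G60950), the main leaf form, stood at 194 and 193 CPM in phyAB red, 541 and 534 CPM in phyB red, 520 and 528 CPM in WT red and 72.0 and 76.4 CPM in WT dark. Its levels in phyB red and WT red were close, and the difference of 0.04 ± 0.03 was not called (adjusted p = 0.312, edgeR; 95% interval -0.01 to 0.09). FD2 was 2.82 ± 0.04 and FD1 1.96 ± 0.05 higher in WT red than in WT dark.

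The genes of the reductases, which receive electrons from ferredoxin, were called higher than WT dark in each red-treated group, as was every other member. LFNR1 (AT5G66190) stood at 56.0 and 58.5 CPM in phyAB red, 166 and 167 CPM in phyB red, 138 and 129 CPM in WT red and 31.3 and 31.8 CPM in WT dark. LFNR2 (AT1G20020) stood at 39.6 and 35.9 CPM in phyAB red, 124 and 124 CPM in phyB red, 108 and 110 CPM in WT red and 18.2 and 17.9 CPM in WT dark. Neither had overlapping groups, and their fold changes in wild type were 2.08 ± 0.05 for LFNR1 and 2.60 ± 0.06 for LFNR2. Of the ATP synthase genes, ATPC1 (AT4G04640), the rotating gamma subunit, stood at 117 and 110 CPM in phyAB red, 261 and 269 CPM in phyB red, 227 and 214 CPM in WT red and 60.2 and 64.6 CPM in WT dark. ATPD (AT4G09650, chromosome 4, 6100714 to 6101864, plus strand), the delta subunit, stood at 86.2 and 85.0 CPM in phyAB red, 180 and 168 CPM in phyB red, 168 and 171 CPM in WT red and 20.0 and 20.7 CPM in WT dark. For ATPD the libraries of phyB red and WT red overlapped, and the difference of 0.03 ± 0.03 was not called (adjusted p = 0.58, edgeR; 95% interval -0.04 to 0.10). It was 3.06 ± 0.05 higher in WT red than in WT dark, and ATPC1 was 1.82 ± 0.04 higher.

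How much of the wild-type response each mutant showed was expressed as its difference from WT dark divided by that of WT red, on log2(CPM + 0.1). Both differences share the WT dark libraries, and 100% means the WT red level. In phyAB red the median over the 32 members was 52.7%, and 21 of 32 were over 50%. Both numbers hold for the log2 scale, and such percentages were not computed over all tested genes. On CPM itself, the phyAB red mean of every member lay nearer to WT dark than to WT red. The summed means were 4009 CPM in phyAB red, 9425 CPM in WT red and 1683 CPM in WT dark. On the log2 scale the lowest percentages were 16.7% for PSAE2 (14.4% and 19.0% in the 2 phyAB libraries) and 17.6% for PETC (17.4% and 17.8%), followed by PSBR at 34.5% and PSBO1 at 36.9%. The highest were PSAH2 at 68.0% (67.5% and 68.4%), ATPD at 67.7% and PSBQ2 at 62.5%. LFNR1 and LFNR2 stood at 41.4% and 40.9%. In phyB red the median was 109%, with a range from 87.3% in FD1 to 119% in PSAE2, and 31 of 32 were over 100%. PSAE2, the member with the lowest value in phyAB red, thus had the highest in phyB red. The percentage divides by the wild-type change, which was smallest in PSAE2 (1.25 on the log2 scale). Against WT red, the log2 fold change of PSAE2 was -1.04 in phyAB red and 0.24 in phyB red. The medians over the members were -1.23 and 0.26. For PETC, with a wild-type change of 1.66, the log2 fold change in phyAB red against WT red was -1.37.

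**Figure D3:**
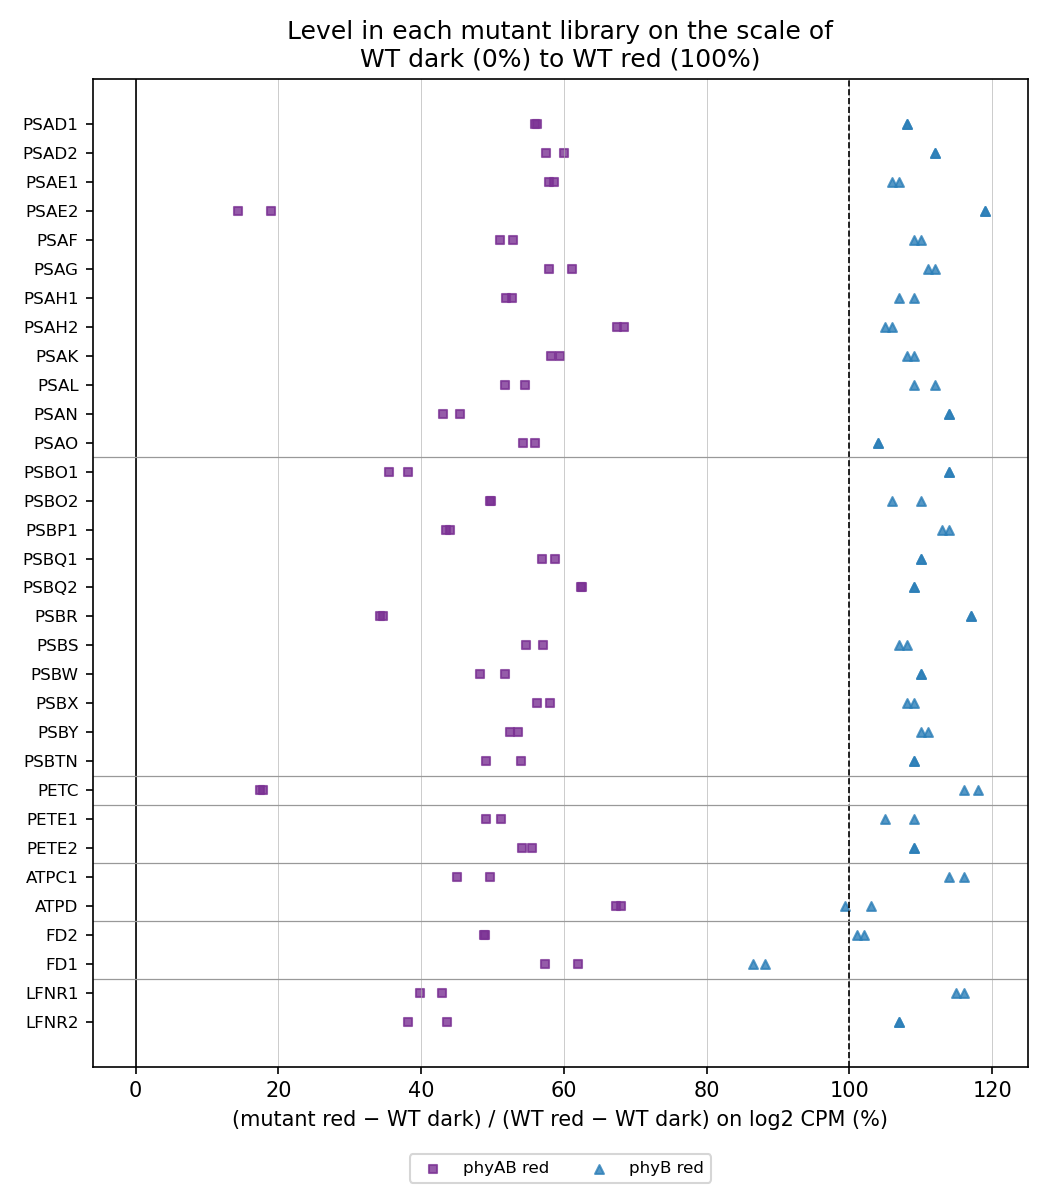
Share of the wild-type red response present in phyAB red and phyB red for each member, in percent on log2(CPM + 0.1), where 0% is the WT dark level and 100% the WT red level. Each point is 1 library. Points of phyAB red run from 14.4% to 68.4%, and those of phyB red from 86.5% to 119%. Computed from group means, the ranges are 16.7% to 68.0% and 87.3% to 119%.

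Of the subunits, 8 were encoded by paired genes, and the balance within a pair was computed per length, as the share of the pair's RPKM in its first copy. In the PSAE pair PSAE1 held 69.5% and 68.3% in phyAB red, 72.7% and 72.8% in phyB red, 73.7% and 72.7% in WT red and 40.9% and 41.2% in WT dark. The leading copy was thus PSAE2 in darkness and PSAE1 in each red-treated library. In the PSAH pair PSAH1 held 40.0% and 39.1% in phyAB red, 33.0% and 33.2% in phyB red, 34.9% and 33.0% in WT red and 70.8% and 66.4% in WT dark. Here PSAH1 led in darkness and PSAH2 in red light. The log2 ratio of the copies differed between WT red and WT dark by 1.97 in PSAE and by -2.09 in PSAH.

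The other 6 pairs kept their leading copy. PSBO1 held 79.7% and 80.2% in phyAB red, 75.6% and 74.1% in phyB red, 75.2% and 74.3% in WT red and 88.8% and 87.6% in WT dark. FD1 held 32.8% and 31.5% of its pair in phyAB red, 19.6% and 20.2% in phyB red, 23.3% and 23.2% in WT red and 35.9% and 35.0% in WT dark. In both pairs the share in phyAB red lay between those of WT red and WT dark, as did the mean share in every other pair. The mean share of PSAD1 was 73.7% in phyAB red, 71.7% in phyB red, 73.3% in WT red and 76.3% in WT dark, and that of PSBQ1 was 53.0% in phyAB red, 58.9% in phyB red, 57.8% in WT red and 51.2% in WT dark. PETE1 held on average 16.1% in phyAB red, 13.5% in phyB red, 14.3% in WT red and 21.0% in WT dark. LFNR1 held 58.4% ± 2.43 (SD, n = 2) in phyAB red, 55.3% ± 0.0502 in phyB red, 53.0% ± 1.66 in WT red and 61.8% ± 0.535 in WT dark. With 2 libraries against 2, an exact permutation test cannot go below p = 0.333, so shares are given without one. Coding sequences of the pairs were 75.0% (PETE) to 88.0% (PSAD) identical in TAIR10.1, and the longest run shared by both transcripts of a pair was 35 bases, in PSAD. No pair shared a stretch of 50 bases. Of the 32 members 11 overlap another annotated gene, 9 of them one on the other strand. Beside PSAH2 and FD1, PSAH1 overlaps AT3G16130 by 788 bases, with 37 and 51 reads of that gene in WT dark beside 552 and 478 of PSAH1. LFNR1 overlaps AT5G66180 by 191 bases, with 525 and 440 reads of that gene in WT dark beside 625 and 592 of LFNR1. PSAE1 overlaps AT4G28755 by 436 bases and PSAG overlaps AT1G55673 by 479 bases, and neither neighbour is among the gene models measured. The shares of the PSAE, PSAH, FD and LFNR pairs carry this limit. These overlaps are those of the RefSeq annotation, and the gene models counted can differ in length. By its reads and RPKM the counted model of PSAH1 had 665 bases, beside 1300 in the nearest RefSeq transcript. For FD1 the lengths were 654 and 854 bases. How much of an overlap lies within the counted models is therefore not known. The sources used here give neither the read length nor how reads matching more than one gene were counted.

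**Figure D4:**
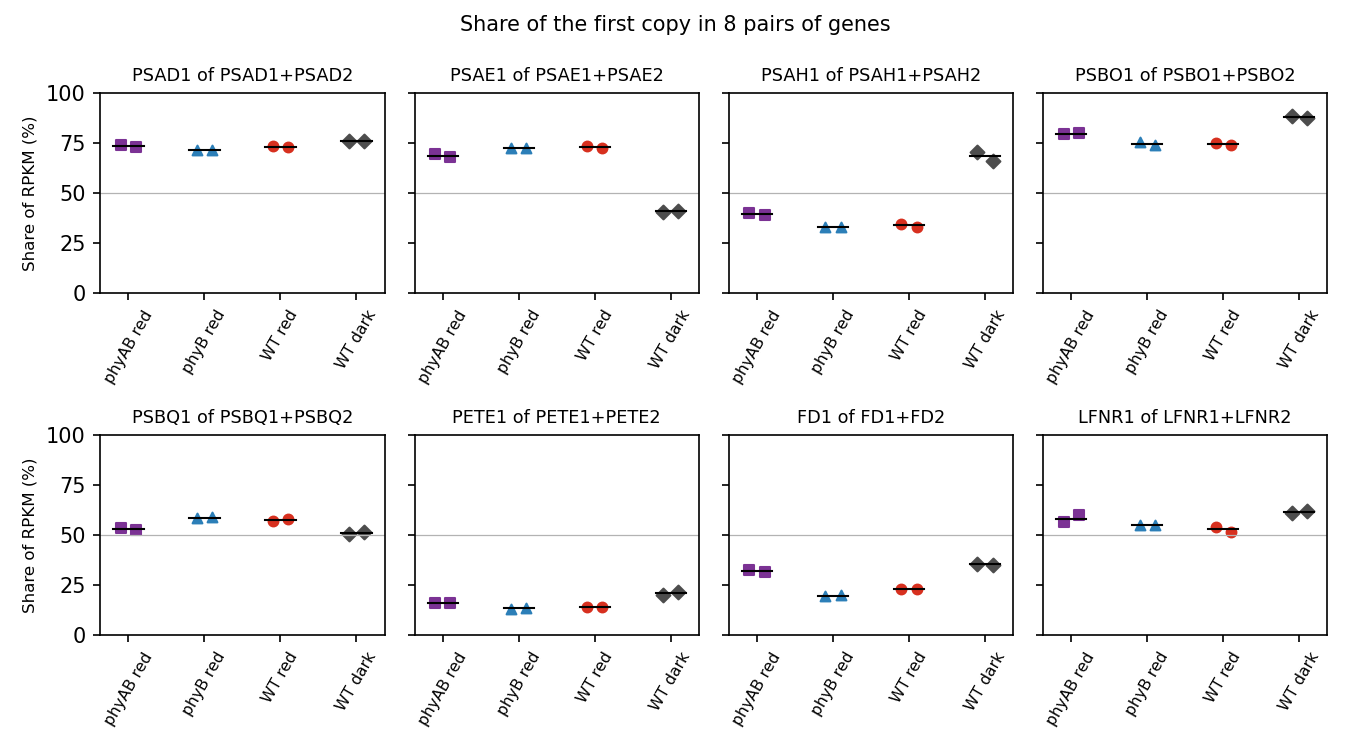
Share of the first copy in the RPKM of each of the 8 gene pairs, in percent; each point is 1 library and each short line a group mean, with phyAB red, phyB red, WT red and WT dark from left to right. The PSAE and PSAH panels cross 50% between WT dark and the red-treated groups.

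With the copies of a subunit summed, the 9 subunits of photosystem I spread over log2 RPKM with an SD of 0.47 and 0.51 in phyAB red, 0.31 and 0.32 in phyB red, 0.36 and 0.34 in WT red and 0.62 and 0.66 in WT dark. They thus lay closest together in phyB red and WT red and furthest apart in WT dark. The ratio of the highest to the lowest subunit in RPKM was 3.13 and 3.33 in phyAB red, 1.98 and 1.97 in phyB red, 2.23 and 2.2 in WT red and 3.19 and 3.79 in WT dark. PsaD was the highest in each library. The lowest was PSAN in the red-treated libraries and PSAK in the dark ones. For the 9 subunits of photosystem II the ratio was 3.38 and 3.13 in phyAB red, 3.31 and 3.28 in phyB red, 3.18 and 3.28 in WT red and 5.75 and 5.84 in WT dark. Their SD over log2 RPKM was 0.65 and 0.64 in phyAB red, 0.62 and 0.62 in phyB red, 0.62 and 0.61 in WT red and 0.92 and 0.93 in WT dark. The dark libraries stood apart from all red-treated ones in this measure.

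Other nuclear genes of the pathway were read from lists of assembly factors and auxiliary subunits, 75 genes of which 74 were tested. In WT red against WT dark 62 were called higher and 2 lower, beside 24.1% and 22.7% of all tested genes, with a median log2 fold change of 1.33, beside 2.58 for the members and 0.0 for all tested genes. In phyB red against WT red 31 were called higher and 1 lower (median 0.17), beside 13.1% and 14% of all tested genes. In phyAB red against WT red 3 were called higher and 63 lower (median -0.82), beside 22.3% and 22.7%. Of 20 genes of cyclic electron flow and the chloroplast NDH complex, 18 were higher in WT red than in WT dark (median 2.09). The highest was PNSL3, an NDH subunit, at 4.24 ± 0.19, and the lowest was NDHO at 0.01 ± 0.08. Of 17 assembly factors of photosystem II, 16 were higher (median 1.72), from LPA19 at 0.24 ± 0.14, which was not called, to PSB28 at 3.53 ± 0.10. All 6 assembly factors of photosystem I were higher (median 0.97), from PSA3 at 0.75 ± 0.10 to PPD1 at 2.13 ± 0.15.

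Of 13 other genes of the cytochrome b6f complex and the ATP synthase, 11 were higher in WT red than in WT dark (median 1.04). CCB3, which helps attach heme to cytochrome b6, was highest at 3.40 ± 0.30. ATPC2, a second gene of the gamma subunit, was lowest at -0.22 ± 0.13 and was not called. Of 10 tested genes of other ferredoxins, reductases and their partners, 6 were higher and 2 lower (median 0.82). TIC62, which tethers ferredoxin-NADP reductase, was highest at 2.57 ± 0.09. The root-type reductase gene RFNR1 was lowest at -0.19 ± 0.08 (adjusted p = 0.0452, edgeR), and it was 0.56 ± 0.08 higher in phyAB red than in WT red. Of 8 genes of thylakoid organisation 5 were higher (median 1.05), from PTOX, the plastid terminal oxidase, at 0.01 ± 0.07 to CURT1C, which bends grana margins, at 2.35 ± 0.08. CURT1C lies directly before PSAH2 on the chromosome. The 20 antenna genes, set beside the members, had 19 called higher in WT red than in WT dark (median 3.03), beside 24.1% of all tested genes. In phyB red 19 of them were called higher than in WT red (median 0.34), beside 13.1% of all tested genes. In phyAB red 19 were called lower than in WT red (median -1.20), beside 22.7%. The antenna genes ran in WT red against WT dark from LHCB4.3 at 0.21 ± 0.10, which was not called, to LHCB1.1 at 6.69 ± 0.06, whose near-identical copies make the split of its reads uncertain.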

How the data were processed

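Seedling RNA was sequenced in 8 libraries. Per the file headers, each deposited file lists read counts and RPKM by gene model. The counts are whole numbers that the authors did not normalize, and the authors' RPKM values scale them by gene length and library total. Genome build TAIR 10 is named in the submitters' processing notes. Aligner, strand setting and the treatment of reads matching several genes are not given in those sources.

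Tests on the counts used edgeR 4.0.16 in R 4.3.3 (filterByExpr with a minimum count of 10, TMM scaling, 1 model of 4 group means without a replicate term, quasi-likelihood F-test, Benjamini-Hochberg adjustment over 20716 genes at 0.05). Standard errors were computed as |log2 fold change| over the root of the F statistic. The test was tried on simulated data first. Levels are CPM after TMM scaling, and copy shares use the deposited RPKM. Library totals of 15926547 to 22116924 reads left counting error small for the members. Alternatives were DESeq2 1.42.0 (size factors, Wald test), no filter, a replicate term, fits on 2 groups alone, glmTreat and leaving out each library. Symbols, positions and sequences come from RefSeq's annotation of TAIR10.1, and the deposited files hold no coordinates. All members were described. Per-library values were given for both genes of each pair, for the members with the largest and smallest fold change of a complex in WT red against WT dark, and for any member not called there or called lower in a contrast, which takes all 32. Of each other pathway list and the antenna list the highest and the lowest gene in that contrast were named. Values given for further genes were chosen after they were seen. Members, lists, tests and motifs were chosen with earlier results of these data known. Plastid-encoded subunits were not analysed here. The summed level of the root marker list is not reported here.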

Additional observations from a re-analysis of the deposited data

How the results depend on the processing

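Of 2688 values of members under alternatives, 2648 kept their direction and their side of the threshold, 39 were no longer called, 33 of them under a 1.5-fold null (glmTreat), and 1 reversed. The reversed value was ATPD in phyB red against WT red at -0.02 without phyB red replicate 1 (adjusted p = 0.808, edgeR); leaving out libraries gave -0.02 to 0.09 for ATPD, never called. Under glmTreat 0 members were called higher and 0 lower in phyB red against WT red, where 379 of 20716 tested genes were called. With DESeq2 size factors the median log2 fold change was 0.27 for phyB red against WT red and -1.49 for phyAB red against phyB red. The DESeq2 Wald test and fits on 2 groups alone gave -1.50 for phyAB red against phyB red, and fits on 2 groups gave 1.32 for phyAB red against WT dark. The median part of the red response was 54.9% in phyAB red and 111% in phyB red on RPKM, and 109% in phyB red with DESeq2 size factors. Summed levels without TMM gave ratios of 5.50 (WT red over WT dark), 1.21 (phyB red over WT red) and 0.444 (phyAB red over WT red), and on RPKM the last 2 were 1.21 and 0.443. The cause of these shifts was not tested. Leaving out each library in turn gave 32 members higher in WT red than in WT dark (median 2.54 to 2.61), 27 to 29 higher and 1 lower in phyB red against WT red (median 0.24 to 0.27), 32 lower in phyAB red against WT red (median -1.25 to -1.21) and against phyB red (median -1.50 to -1.47), and against WT dark 32 higher in phyB red (median 2.79 to 2.84) and 31 to 32 in phyAB red (median 1.31 to 1.38). The median part of the response was then 52.4% to 53.3% in phyAB red and 109% to 110% in phyB red, and the summed ratios were 5.56 to 5.64 for WT red over WT dark, 1.18 for phyB red over WT red and 0.425 to 0.426 for phyAB red over WT red. The log2 copy ratio of WT red minus WT dark was then -0.25 to -0.21 in PSAD, 1.94 to 2.01 in PSAE, -2.24 to -1.94 in PSAH, -1.42 to -1.25 in PSBO, 0.35 to 0.42 in PSBQ, -0.71 to -0.62 in PETE, -0.89 to -0.83 in FD and -0.59 to -0.45 in LFNR. A library left alone in its group was assumed to vary like the other groups. The replicate numbers did not pair the samples (correlations of deviations -0.02 to 0.01 over 15460 genes), and the replicate block left the calls at 32 higher in WT red against WT dark, 29 higher and 1 lower in phyB red against WT red and 32 lower in phyAB red against WT red. Over all genes the 6 comparisons gave 5608 to 11300 calls with edgeR and 379 to 2720 with glmTreat, and phyB red against WT red gave 5608 with edgeR and 3647 with the DESeq2 Wald test. Depth limits the lowest dark levels most, such as PSAH2 with 227 and 242 reads in WT dark.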
